A study of Mus musculus with 37 samples.

Results

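The genes described here mostly encode subunits of complexes III, IV and V of the mitochondrial respiratory chain. The genes described here also include the copper chaperone Cox17, the inhibitory factor Atp5if1, the supercomplex assembly factor Cox7a2l and the processed pseudogene Cox6c2. They were the genes whose symbol began with Uqcr, with Cox and a digit 4 to 8, with Atp5 or with the mitochondrial prefixes mt-Co, mt-Cytb and mt-Atp, together with Cyc1 and Cox17, without names ending in -ps and with at least 100 counts over all 37 libraries. Of 57180 genes, 54 matched by name and 49 reached that total. They comprised 10 genes of complex III, 20 of complex IV and 19 of complex V, of which 44 are nuclear and 5 are encoded by the mitochondrial genome. The 5 genes left out were Cox8b (65 counts), Cox7b2 (48), mt-Atp8 (19), Cox8c (0) and a second entry named Atp5po (0). All 49 members passed the filter on low counts when the cell types were compared, whereas 44 and 43 passed it when ages were compared in DAT;NuTRAP and in VGAT;NuTRAP mice.

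Complex III (cytochrome bc1) takes electrons from ubiquinol and passes them to cytochrome c, complex IV (cytochrome c oxidase) passes them on to oxygen, and both pump protons out of the mitochondrial matrix. Complex V (ATP synthase) lets the protons back and makes ATP from the energy. Nuclear genes provide most of the subunits and mitochondrial DNA provides a few hydrophobic core ones. Neurons depend heavily on oxidative phosphorylation, and dopamine neurons of the substantia nigra are known for a high energetic load.

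Translating RNA was measured by RNA sequencing of ribosomes pulled down from the midbrain with an antibody to GFP, with 1 mouse per library. NuTRAP is an allele at Rosa26 that expresses the ribosomal protein L10a fused to EGFP after Cre recombination, and all animals carried it. In DAT;NuTRAP mice Cre was made from the dopamine transporter locus (DAT-IRES-Cre), giving 9 old (21 months) and 10 young libraries (8 to 10.5 months). In VGAT;NuTRAP mice Cre was made from the vesicular GABA transporter locus (Vgat-ires-cre), giving 8 old (21 months, with 1 female of 24) and 10 young libraries (7 to 9 months). Old and young mice were natural aging cohorts of both sexes, with no treatment. The labels also put each library in a second or a first batch, 11 and 8 libraries of DAT;NuTRAP and 12 and 6 of VGAT;NuTRAP, without saying what a batch stands for or whether batches of the same name were handled together in the 2 models. The untagged input fraction was not used here. Because each library is a pool of RNA from many cells, fewer cells of a type and less RNA per cell cannot be told apart.

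Library depth ranged from 13841253 to 38235015 counts. The dopamine neuron markers summed to 12947 to 18249 CPM (counts scaled to a common library size, with TMM factors) in DAT;NuTRAP and 1009 to 3912 CPM in VGAT;NuTRAP libraries, and the GABA neuron markers to 529 to 904 and 4020 to 5174 CPM. The labelled cell types therefore carried their defining markers, and neither pulldown was free of the markers of the other type. The batches of DAT;NuTRAP also differed in measures outside the respiratory chain. In them 14323 to 18170 genes were detected in the second batch and 19085 to 21051 in the first. The 8 oligodendrocyte markers, all detected, summed to 1131 to 2348 CPM in the second and 508 to 772 CPM in the first batch of DAT;NuTRAP, and the 95 cytosolic ribosomal protein genes to 17338 to 21980 and 10550 to 12451 CPM. In VGAT;NuTRAP the oligodendrocyte markers summed to 247 to 968 CPM in the second and 341 to 676 CPM in the first batch, and the ribosomal protein genes to 9066 to 10404 and 9971 to 12025 CPM.

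Promoter sequences are shown for a pair of members whose difference between the cell types went opposite ways, with the letters of factors known to act on genes of the respiratory chain. RefSeq promoter sequences (GRCm38.p6, 250 bases before to 50 after the start) were matched for 30 of the 44 nuclear members. The letters searched on both strands were GCGCANGCG for nuclear respiratory factor 1 (NRF1), CCGGAAG for the GA-binding protein (GABP) and AANATGGCG for YY1. NRF1 letters stood in 9 of 30 member promoters (30.0%) against 6.47% of 27025 promoters in all, GABP letters in 9 of 30 (30.0%) against 9.12%, and YY1 letters in 2 of 30 (6.67%) against 2.51%. At least 1 of the 3 was found in 15 of 30 (50.0%), against 16.0% of all promoters. These are matches of letters and not shown sites, and the letters of the 3 do not overlap in the promoters printed. The promoter of Atp5f1b, which encodes the catalytic beta subunit of ATP synthase and was lower in DAT;NuTRAP in both batches, lies at chr10:128083057-128083356 on the plus strand, with the YY1 letters in capitals. That of Uqcr11, a small subunit of complex III that was higher in DAT;NuTRAP of the second batch, lies at chr10:80406772-80407071 on the minus strand, with the GABP and then the NRF1 letters in capitals.
Atp5f1b: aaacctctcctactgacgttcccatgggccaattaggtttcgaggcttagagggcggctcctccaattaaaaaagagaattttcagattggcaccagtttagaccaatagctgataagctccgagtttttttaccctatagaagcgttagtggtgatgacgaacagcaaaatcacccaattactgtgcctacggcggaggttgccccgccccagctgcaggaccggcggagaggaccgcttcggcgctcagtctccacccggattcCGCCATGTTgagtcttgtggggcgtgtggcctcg
Uqcr11: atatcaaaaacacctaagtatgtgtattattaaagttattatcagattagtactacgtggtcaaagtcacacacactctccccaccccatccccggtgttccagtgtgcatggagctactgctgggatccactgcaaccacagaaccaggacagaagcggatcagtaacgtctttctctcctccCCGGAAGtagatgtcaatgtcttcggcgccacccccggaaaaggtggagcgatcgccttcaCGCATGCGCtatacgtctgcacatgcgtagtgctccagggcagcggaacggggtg

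Members spanned more than 3 orders of magnitude in level. Per kilobase of the canonical transcript, which need not be the form expressed here, the highest mean levels over all libraries were those of Atp5f1b (994 CPM per kb), Cox4i1, the common form of complex IV subunit 4 (822), Cox6c (595) and Atp5f1a, the alpha subunit of ATP synthase (578). The lowest was Cox6a2 (0.363), the heart and skeletal muscle form of subunit 6a. In the Cox4i, Cox6a and Cox6b pairs of alternative forms, 1 form prevailed: Cox4i1 at 822 against Cox4i2 at 0.535, Cox6a1 at 457 against Cox6a2 at 0.363, and Cox6b1 at 481 against the testis form Cox6b2 at 1.69 CPM per kb. Cox7a2 stood at 209 CPM per kb, its relative Cox7a2l, which takes part in supercomplex assembly, at 113, and the muscle form Cox7a1 at 8.16. The 3 genes that all encode the same mature c subunit of ATP synthase were measured at 479 (Atp5mc3), 371 (Atp5mc1) and 67.9 CPM per kb (Atp5mc2). Atp5f1a and Atp5f1b varied least between libraries of the same model, age and batch, with SDs of 0.0837 and 0.0859 on the log2 scale, whereas mt-Co1 (0.658), mt-Cytb (0.575), Uqcrq (0.518) and Cox17 (0.443) varied most among members above 10 CPM.

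Several of these levels carry a counting limit. A read can be placed at a member only if the sequence is not repeated elsewhere, and 87.5% of the 100-base windows of the Atp5mc2 transcript, 68.3% of those of Cox7c, 65.3% of those of Atp5mc1 and 57.4% of those of Atp5mg also occurred elsewhere in GRCm39. Cox6c2 is annotated as a processed pseudogene, and its name places it among the complex IV members. How the counting treated strand is not given in the sources used here, and the canonical transcript overlapped genes on the opposite strand over its whole length in Atp5mk and over 59.6% of it in Atp5if1, 46.4% in Atp5pf and 43.5% in Uqcr10, so the reads of such pairs may not be told apart. The values of these genes are uncertain to that extent.

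The main comparison asked whether the 2 neuron types differ in these genes. The direction depended on the batch. DAT;NuTRAP and VGAT;NuTRAP libraries were matched by batch name. The labels do not say that batches of the same name were handled together, so the within-batch comparisons rest on that matching. In the second batch most members were higher in DAT;NuTRAP than in VGAT;NuTRAP libraries: 38 of 49 were higher, against 28.6% of 17449 genes tested, and 4 were lower, against 31.8% (edgeR quasi-likelihood test, Benjamini-Hochberg adjusted p below 0.05). In the first batch none was higher, against 13.8% of genes, and 28 were lower, against 15.4%. DESeq2 gave the same 0 higher and 28 lower in the first batch, and 30 members had an unadjusted p below 0.05 there in either direction. The median log2 difference of the members was 0.55 in the second batch (all genes: -0.01) and -0.31 in the first. Tested as a difference of differences, 35 of 49 members had a higher DAT;NuTRAP over VGAT;NuTRAP ratio in the second than in the first batch, against 12.0% of genes, and 1 a lower ratio, against 16.2%; the median was 0.77 on the log2 scale.

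**Figure D1:**
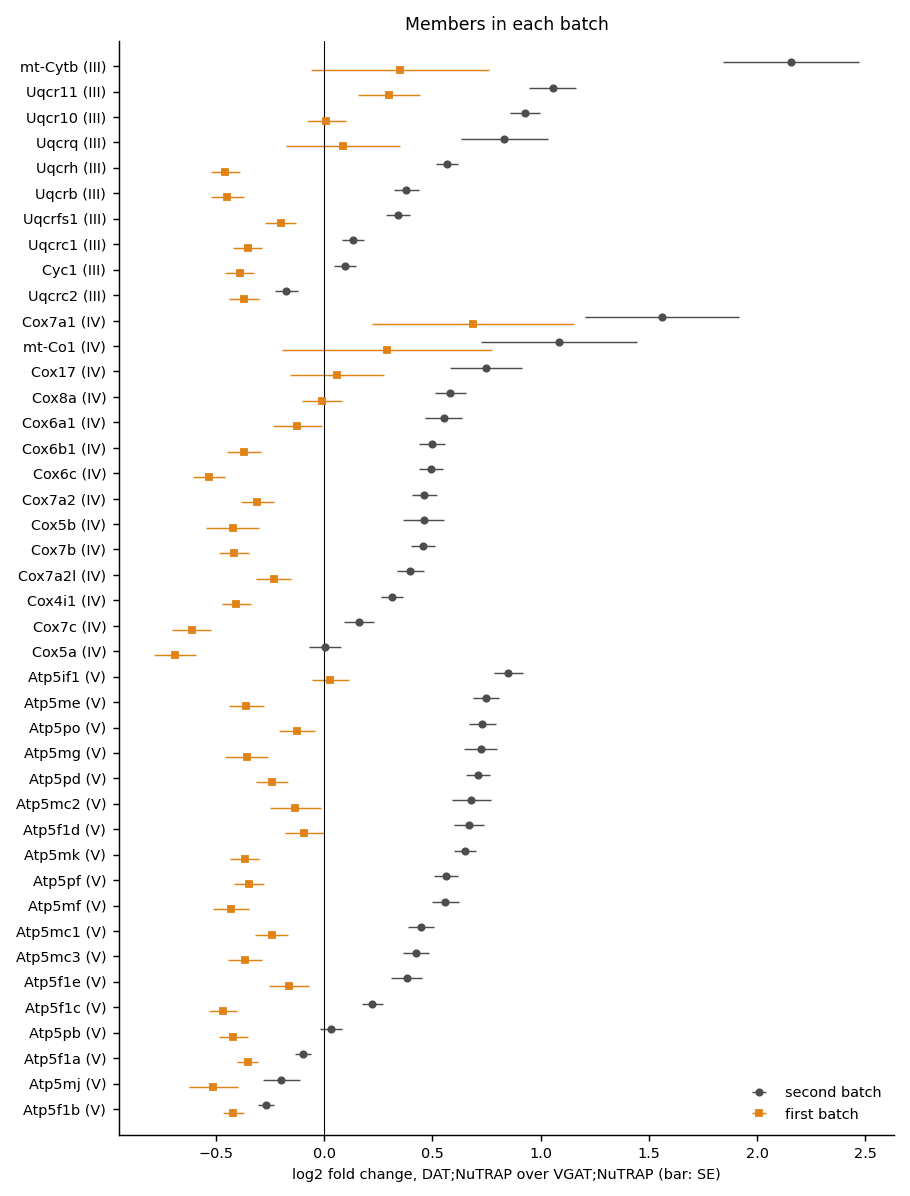
Log2 fold change of DAT;NuTRAP over VGAT;NuTRAP libraries (x axis, bars are standard errors) for the members with at least 1000 counts, listed by complex, in the second batch (grey circles) and in the first batch (orange squares). Most grey circles lie right of 0 and most orange squares left of it; Atp5f1b, Atp5f1a, Uqcrc2 and Atp5mj lie left of 0 in both.

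By batch the members fell into a few patterns. In 21 of 49 members the DAT;NuTRAP level was lower in the first and higher in the second batch, a reversal found in 163 of all 17449 genes (0.934%). A further 17 were higher in the second batch only, 3 lower in the first only, and 4 passed in neither. Just 4 members, Atp5f1b, Atp5f1a, Uqcrc2 and Atp5mj, were lower in both, a pattern of 12.5% of all genes, and 0 were higher in both. The share of all genes was counted only for the reversal and for lower in both, so the other pattern counts have no background here. Atp5f1b and Uqcrc2 were lower in both in all 7 other fits of these comparisons (other scaling, filters, DESeq2, the replicate block and without 3 libraries described later). For Atp5f1a and Atp5mj the call in the second batch was lost in 4 of the 7, with adjusted p-values of 0.212 and 0.113 by DESeq2, which gave 40 members higher and 2 lower in that batch. The same libraries enter the within-batch comparisons, the comparison of batches and the difference of differences, so these counts are not independent of each other.

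In complex III, 7 of 9 nuclear members were higher in the second batch, against 28.6% of all genes, and 6 were lower in the first, against 15.4%. Uqcr10, a small subunit, ranged in the second batch from 150 to 235 CPM (median 194) in DAT;NuTRAP and from 89.5 to 126 CPM (median 99.0) in VGAT;NuTRAP libraries, without overlap. In the first batch it ranged from 82.1 to 120 CPM (median 99.3) and from 77.8 to 123 CPM (median 96.9), with full overlap. Its log2 differences were 0.93 ± 0.07 (SE) in the second batch (adjusted p = 7.98e-16) and 0.01 ± 0.09 in the first. Uqcrh, the hinge protein between cytochrome c1 and cytochrome c, reversed: 284 to 379 CPM in DAT;NuTRAP and 194 to 256 CPM in VGAT;NuTRAP of the second batch, but 165 to 231 and 225 to 304 CPM in the first. Its log2 differences were 0.57 ± 0.05 and -0.46 ± 0.07. Uqcr11 was higher by 1.06 ± 0.11 in the second batch and stood at 0.30 ± 0.14 in the first (adjusted p = 0.12). Uqcrc2, a core protein outside the electron path, was lower in both batches (-0.17 ± 0.05 and -0.37 ± 0.07), while its partner Uqcrc1 was higher in the second batch (0.13 ± 0.05) and lower in the first (-0.35 ± 0.07). The redox subunits Cyc1 (cytochrome c1) and Uqcrfs1 (the Rieske iron-sulfur protein) were both lower in the first batch (-0.39 ± 0.07 and -0.20 ± 0.07), and Uqcrfs1 was higher in the second (0.34 ± 0.06).

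In complex IV, 13 of 17 nuclear members were higher in the second batch, against 28.6% of all genes, and 9 were lower in the first, against 15.4%. Cox6c, a small structural subunit, ranged in the second batch from 280 to 420 CPM (median 379) in DAT;NuTRAP and from 219 to 309 CPM (median 251) in VGAT;NuTRAP libraries, and in the first from 205 to 266 CPM (median 237) and from 275 to 399 CPM (median 341). Groups overlapped slightly in the second batch and not at all in the first, with log2 differences of 0.49 ± 0.06 and -0.53 ± 0.07. The most abundant member of this complex, Cox4i1, behaved alike, with 0.31 ± 0.05 and -0.41 ± 0.07, and so did Cox7b (0.46 ± 0.05 and -0.42 ± 0.07) and Cox6b1 (0.50 ± 0.06 and -0.37 ± 0.08). Cox5a was an exception. In the second batch this matrix-side subunit had 127 to 203 CPM in DAT;NuTRAP and 145 to 183 CPM in VGAT;NuTRAP, a difference of 0.00 ± 0.07. In the first it had 52.5 to 91.4 and 93.6 to 135 CPM, without overlap, and was lower in DAT;NuTRAP (-0.69 ± 0.10). The muscle form Cox7a1 was higher by 1.56 ± 0.35 in the second batch and stood at 0.69 ± 0.47 in the first, at levels of 12.5 CPM or less in every library. Cox4i2, the form known from lung and hypoxia, passed in the second batch (1.84 ± 0.77, adjusted p = 0.038), but no library had more than 2.12 CPM of it.

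In complex V, 14 of 18 nuclear members were higher and 3 lower in the second batch, against 28.6% and 31.8% of all genes. In the first batch 13 were lower, against 15.4%. Atp5f1b ranged in the second batch from 1467 to 1827 CPM (median 1735) in DAT;NuTRAP and from 1853 to 2160 CPM (median 2038) in VGAT;NuTRAP libraries, and in the first from 1574 to 1971 CPM (median 1732) and from 2186 to 2471 CPM (median 2305). Groups did not overlap in either batch, and the log2 differences were -0.27 ± 0.04 (adjusted p = 3.1e-08) and -0.42 ± 0.05 (adjusted p = 1.29e-09). Atp5f1a, its partner in the catalytic hexamer, was also lower in both (-0.10 ± 0.04 and -0.35 ± 0.05), and so was Atp5mj, a small membrane subunit (-0.20 ± 0.09 and -0.51 ± 0.11). Atp5pb, the b subunit of the peripheral stalk, was lower in the first batch (-0.42 ± 0.07) and stood at 0.03 ± 0.05 in the second. Atp5me, a subunit of the membrane part, was higher in the second batch, where it ranged from 133 to 186 CPM in DAT;NuTRAP and from 83.1 to 118 CPM in VGAT;NuTRAP, without overlap. In the first batch the same gene had 72.0 to 92.0 and 86.4 to 126 CPM, and its difference moved to -0.36 ± 0.08, against 0.75 ± 0.06 in the second. Atp5po, the stalk subunit that confers oligomycin sensitivity, was higher by 0.73 ± 0.06 in the second batch and stood at -0.13 ± 0.08 in the first. Atp5if1, the inhibitory factor that blocks ATP hydrolysis, was higher by 0.85 ± 0.07 in the second batch and stood at 0.03 ± 0.09 in the first. All 3 genes of the c ring were higher in the second batch, by 0.45 ± 0.06 (Atp5mc1), 0.68 ± 0.09 (Atp5mc2) and 0.42 ± 0.06 (Atp5mc3). In the first batch Atp5mc1 and Atp5mc3 reversed and were lower in DAT;NuTRAP, and Atp5mc2 did not pass.

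**Figure D2:**
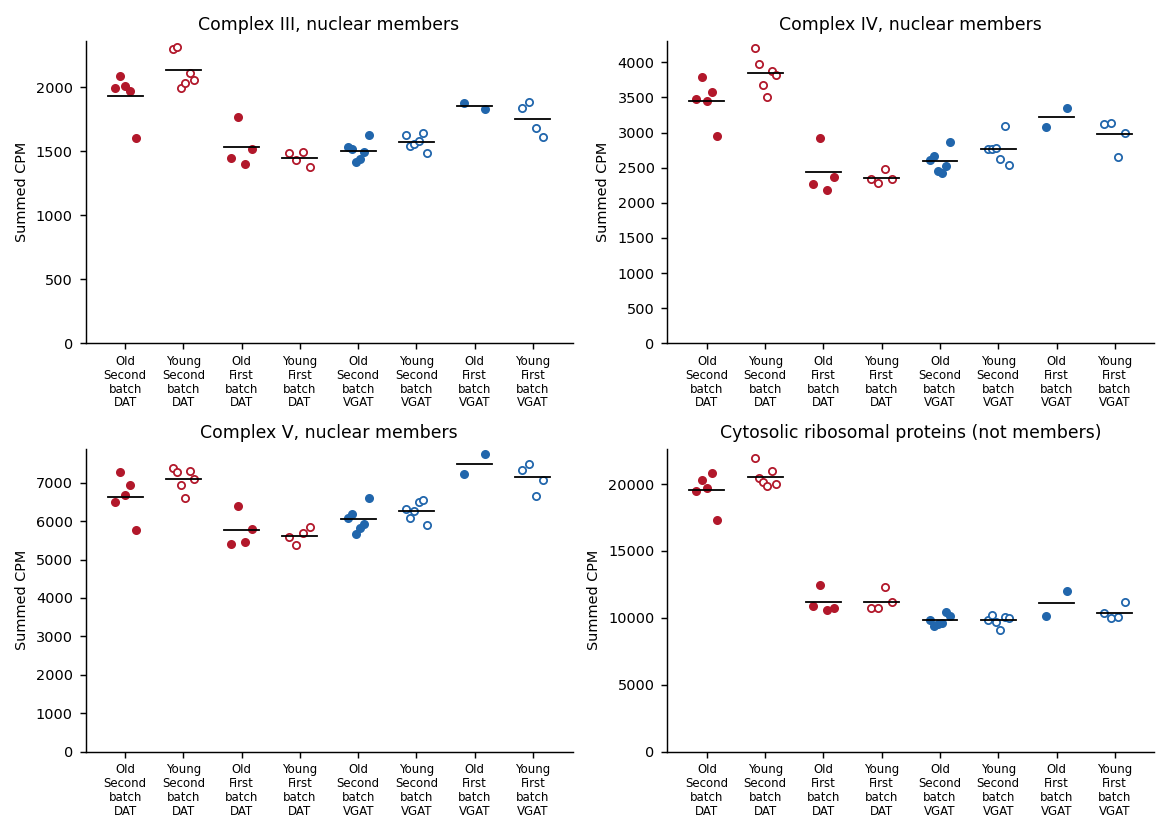
Summed CPM of the nuclear members of each complex and of the 95 cytosolic ribosomal protein genes (y axis) in each library, by model, batch and age (old filled, young open; bars are means). In DAT;NuTRAP the means of the second batch stand above those of the first in every panel, with no overlap in complex IV and the ribosomal protein genes, and in VGAT;NuTRAP the means of the second batch stand below those of the first.

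The sums over a complex show which side moved. The nuclear members of complex IV summed to 3665 ± 332 CPM (SD, n = 11) in the second and 2395 ± 231 CPM (n = 8) in the first batch of DAT;NuTRAP, and those of complex III to 2045 ± 187 and 1490 ± 121 CPM. In VGAT;NuTRAP the order of batches was the other way: 2678 ± 191 CPM (n = 12) and 3059 ± 231 CPM (n = 6) for complex IV, and 1539 ± 73.0 and 1789 ± 112 CPM for complex III. Complex V summed to 6896 ± 479 and 5699 ± 335 CPM in DAT;NuTRAP, and to 6162 ± 298 and 7260 ± 377 CPM in VGAT;NuTRAP. Gene by gene, the second over the first batch was higher for 34 of 49 members in DAT;NuTRAP, against 16.2% of genes, and lower for 1, against 22.0%, with a median of 0.60. In VGAT;NuTRAP 2 members (Cox5a and Cox8a) were higher, against 5.85% of genes, and 19 lower, against 6.15%, with a median of -0.20. Cox5a had the smallest p in DAT;NuTRAP, at 1.27 ± 0.09, and stood at 0.58 ± 0.09 in VGAT;NuTRAP.

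These differences were related to the coding length of a gene. Over 14629 genes the Spearman correlation of coding length with the second over first batch difference was -0.35 in DAT;NuTRAP and 0.23 in VGAT;NuTRAP. Of 48 members with a coding length, 38 lay in the shortest of 5 length classes of equal size (99 to 774 bases). The genes of that class had a median batch difference of 0.22 in DAT;NuTRAP and its 38 members of 0.67. For the cell types, the median of that class was 0.42 in the second batch (members 0.56) and 0.07 in the first (members -0.24). The 5 members of the second class and the 5 of the third had median batch differences of 0.42 and -0.03 in DAT;NuTRAP. The oligodendrocyte markers, the ribosomal protein genes and the number of genes detected differed between the batches of DAT;NuTRAP. A gene's batch difference also went with its coding length. The part of each in the members' differences was not tested.

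Averaged over batches, the cell types showed a mixture. Of 49 members 19 were higher in DAT;NuTRAP, against 28.7% of 16898 genes, and 9 were lower, against 29.3%; the median was 0.13 (all genes: 0.01). Among young mice 15 were higher and 8 lower, against 24.0% and 25.3% of genes, and among old mice 12 and 8, against 21.5% and 22.9%. The higher ones by the smallest p were Uqcr10 (0.49 ± 0.06), Atp5if1 (0.46 ± 0.06), Uqcr11 (0.70 ± 0.09), Atp5po (0.32 ± 0.05), Atp5pd (0.25 ± 0.05) and Atp5f1d (0.31 ± 0.06), and the lower ones Atp5f1b (-0.33 ± 0.03), Atp5f1a (-0.21 ± 0.03), Uqcrc2 (-0.25 ± 0.05), Cox5a (-0.32 ± 0.06) and Atp5mj (-0.34 ± 0.07). Of these, Atp5f1b, Atp5f1a, Uqcrc2 and Atp5mj passed the threshold, in 1 direction, in both batches.

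Genes that serve the same complexes without being subunits were counted in the same way. Of 37 listed assembly factors 35 were tested. In the second batch 19 were higher and 9 lower in DAT;NuTRAP, against 28.6% and 31.8% of all genes, with a median of 0.32. In the first 1 was higher and 5 lower, against 13.8% and 15.4%, with a median of -0.03, so that the numbers lower did not exceed the background in either batch. Higher in the second were Uqcc2 (0.98 ± 0.07) and Uqcc3 (1.19 ± 0.09), which serve complex III, Pet100 (1.16 ± 0.11) and Coa3 (0.63 ± 0.06), which serve complex IV, and Tmem242 (0.84 ± 0.07), which serves complex V. Lower in both batches were Atpaf1 (-0.72 ± 0.07 and -0.71 ± 0.09), the chaperone of the beta subunit encoded by Atp5f1b, Atpaf2 (-0.35 ± 0.10 and -0.38 ± 0.13), the chaperone of the alpha subunit, and Tmem70 (-0.31 ± 0.08 and -0.47 ± 0.10), a factor of the c ring. Of 9 further genes around the chain (complex II, cytochrome c, the carriers of phosphate and adenine nucleotides, and Ndufa4) 6 were higher and 3 lower in the second batch, against the same 28.6% and 31.8% of genes, and 8 were lower in the first, against 15.4%. Sdha, the flavoprotein of complex II, was lower in both (-0.46 ± 0.04 and -0.37 ± 0.05), whereas Sdhd, a membrane anchor of the same complex, was higher in the second (0.22 ± 0.06) and lower in the first (-0.29 ± 0.07).

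The mitochondrially encoded members came in 2 kinds. mt-Co1 and mt-Cytb, the catalytic core of complex IV and the cytochrome b of complex III, averaged 401 and 407 CPM, whereas mt-Co2, mt-Co3 and mt-Atp6 averaged 0.447, 0.366 and 0.394 CPM. Every 100-base window of mt-Co2, mt-Co3, mt-Atp6 and mt-Atp8 occurred a second time in GRCm39, in a stretch of chromosome 1 (24652269 to 24654646). Of the windows of mt-Co1 30.8% occurred elsewhere in GRCm39, on chromosomes 1 and 2, and of those of mt-Cytb 0%. The first 60 bases of 3 of these genes, with the start codon in capitals, show the contrast: those of mt-Co2 (chrM:7013-7072, plus strand) are found again base for base at chr1:24654587-24654646 on the minus strand, and those of mt-Co1 (chrM:5328-5387) and mt-Cytb (chrM:14145-14204) were not found on chromosome 1.
mt-Co2: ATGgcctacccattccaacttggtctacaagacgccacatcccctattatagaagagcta
mt-Co1: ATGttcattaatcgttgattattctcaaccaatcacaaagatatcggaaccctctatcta
mt-Cytb: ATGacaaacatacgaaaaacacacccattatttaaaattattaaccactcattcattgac
The low counts of mt-Co2, mt-Co3 and mt-Atp6 are therefore uncertain as levels of these genes. mt-Co2 and mt-Atp6 are among the 38 members called higher in the second batch (1.70 ± 0.61 and 1.49 ± 0.58). Both met the filter on low counts mainly through the DAT;NuTRAP libraries of that batch, where they are high. Their calls are therefore no support for a difference between the cell types. The tag used for the pulldown sits on a cytosolic ribosomal protein, while mitochondrial messages are translated on ribosomes inside the organelle; how the mitochondrial reads entered the libraries was not tested.

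Among members with a mean above 10 CPM, mt-Cytb had the largest difference between cell types in the second batch. In the second batch it ranged from 492 to 1689 CPM (median 637) in DAT;NuTRAP and from 127 to 578 CPM (median 157) in VGAT;NuTRAP libraries, a log2 difference of 2.16 ± 0.31 (adjusted p = 3.91e-07). In the first batch it ranged from 125 to 556 CPM (median 168) and from 141 to 246 CPM (median 205), a difference of 0.35 ± 0.41 (adjusted p = 0.61). The difference of differences passed for mt-Cytb (1.81 ± 0.52, adjusted p = 0.0074). mt-Co1 was higher in DAT;NuTRAP of the second batch by 1.08 ± 0.36, with 308 to 1259 CPM (median 422) and 135 to 1026 CPM (median 185), and stood at 0.29 ± 0.48 in the first, and its difference of differences did not pass (0.79 ± 0.61, adjusted p = 0.39). Averaged over batches mt-Co1 was higher by 0.71 ± 0.30 (adjusted p = 0.042), a call that was lost in 16 of the 37 fits that left out 1 library. The ratio of mt-Co1 to mt-Cytb, which does not depend on library scaling, separated the batches of DAT;NuTRAP: 0.535 to 0.833 in the second and 1.33 to 1.82 in the first. In VGAT;NuTRAP it was 1.05 to 1.77 and 1.41 to 1.83.

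**Figure D3:**
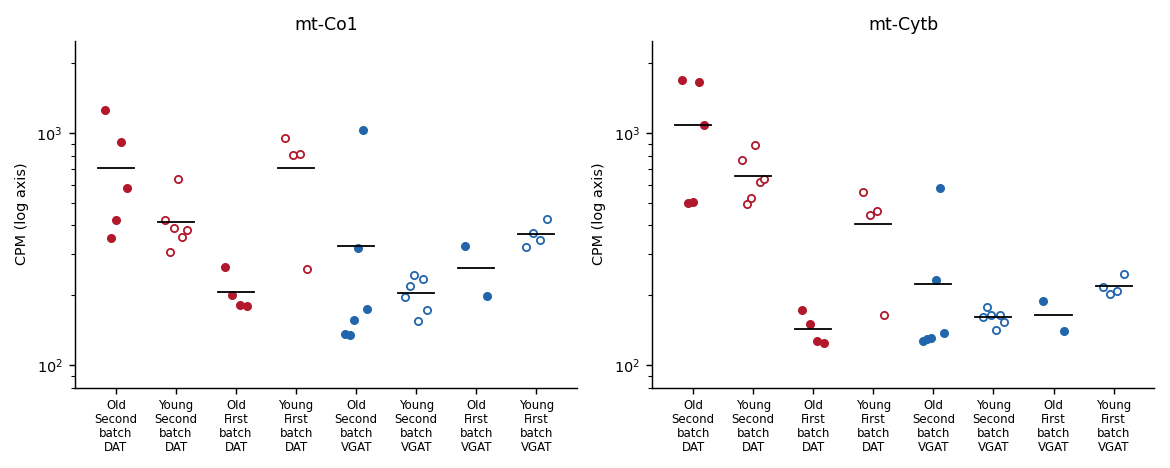
CPM of mt-Co1 and mt-Cytb (y axis, logarithmic) in each library, by model, batch and age (old filled, young open; bars are means). In DAT;NuTRAP the old libraries of the first batch stand below 3 of the 4 young ones, and the order is mixed in the second batch; in VGAT;NuTRAP 1 old library of the second batch stands apart at 1026 and 578 CPM.

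With age no member passed the threshold in either model. In DAT;NuTRAP 0 of 44 members were called, against 0.00672% of 14889 genes (1 gene), 3 members had an unadjusted p below 0.05 (5.28% of all genes did), and 35 of 44 had a negative log2 difference of old over young mice (all genes: 49.3%), with a median log2 difference of -0.08. In VGAT;NuTRAP 0 of 43 were called, against 0.0256% of 15607 genes (4 genes), 2 had an unadjusted p below 0.05 (5.98% of all genes), and 30 of 43 had a negative difference (all genes: 50.5%), with a median of -0.02. DESeq2 called no member either in either model. The difference in the age effect between the models was called for 0 of 49 members, against 0% of genes, with 1 at an unadjusted p below 0.05 (3.89% of all genes) and none by DESeq2. The smallest p among members was that of Uqcrb, a small complex III subunit at the quinone side, in both models. It ranged from 56.8 to 105 CPM (median 83.1) in old and from 70.7 to 138 CPM (median 108) in young DAT;NuTRAP libraries, groups that overlapped, with a log2 difference of -0.30 ± 0.08 (adjusted p = 0.379). In VGAT;NuTRAP it ranged from 68.6 to 94.2 CPM (median 78.2) in old and from 76.6 to 120 CPM (median 85.9) in young libraries, with -0.14 ± 0.06 (adjusted p = 0.784). Cox6c (-0.18 ± 0.06) and Atp5mk (-0.16 ± 0.06) followed in DAT;NuTRAP, and Cox5a (-0.15 ± 0.06) in VGAT;NuTRAP, none past the threshold. None of the assembly factors and further genes was called with age.

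**Figure D4:**
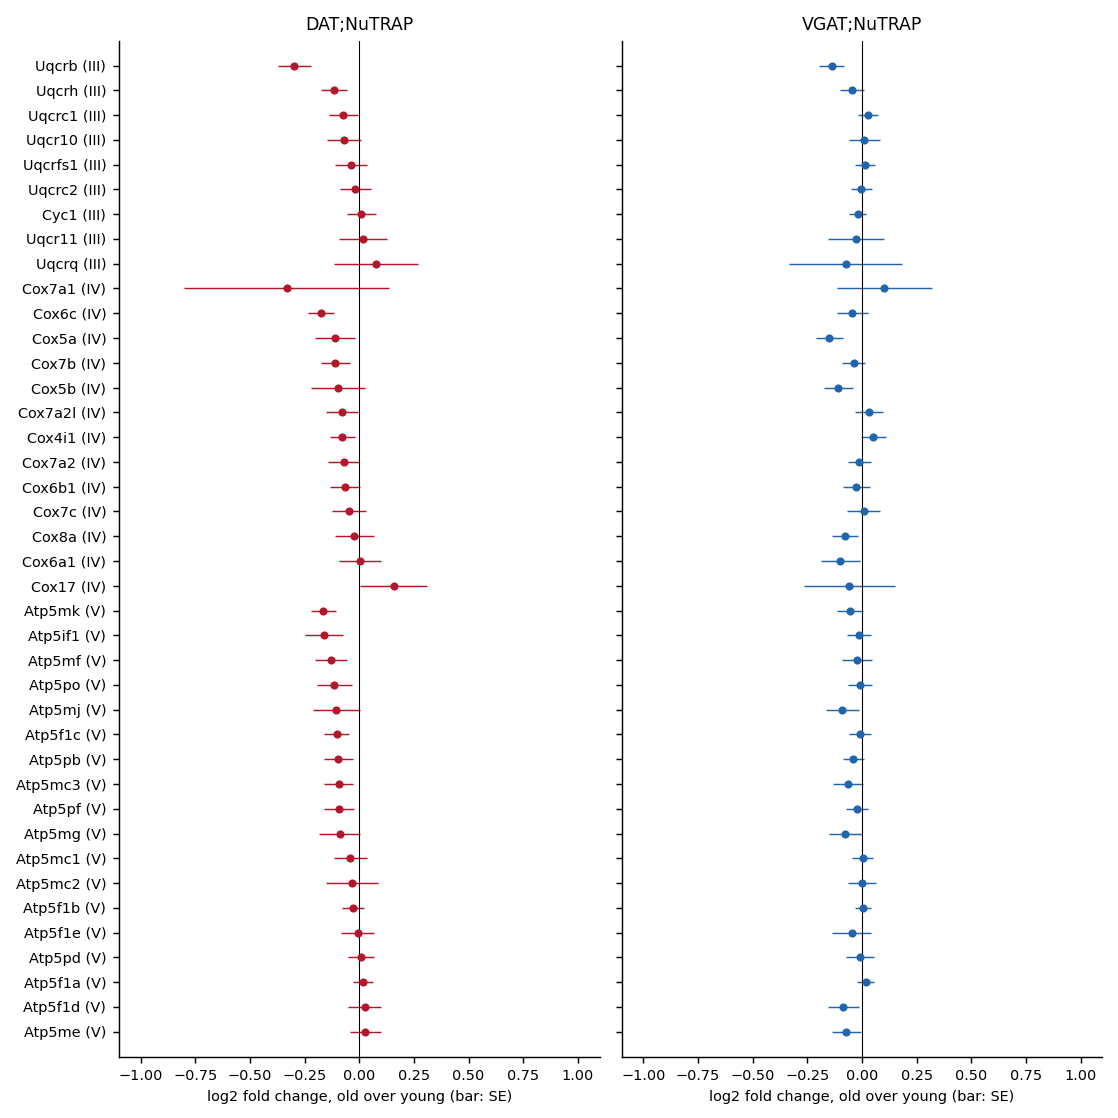
Log2 fold change of old over young libraries (x axis, bars are standard errors) for the nuclear members tested in both models with at least 1000 counts, in DAT;NuTRAP (left) and VGAT;NuTRAP (right). Uqcrb lies furthest from 0 relative to its error in both, at -0.30 and -0.14.

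Split by sex, again no member was called. The counts were 0 of 44 in DAT;NuTRAP females (0% of all genes called), 0 of 48 in DAT;NuTRAP males (0%), 0 of 44 in VGAT;NuTRAP females (0.0320%) and 0 of 43 in VGAT;NuTRAP males (0.0315%), and DESeq2 called none in any of them. In the same order 7, 2, 6 and 2 members had an unadjusted p below 0.05, against 4.05%, 5.5%, 5.59% and 5.12% of all genes. The smallest p stood with Uqcrb in DAT;NuTRAP females (-0.41 ± 0.11) and males (-0.25 ± 0.10), with Atp5mg, a membrane subunit of ATP synthase, in VGAT;NuTRAP females (-0.27 ± 0.07), and with Cox17 in VGAT;NuTRAP males (0.31 ± 0.14). The VGAT;NuTRAP males were 3 old and 4 young libraries. Their only first-batch libraries, old male library 1 and young male library 1, were both low in Cox17 (27.6 and 16.3 CPM). The age difference was negative for 41 of 44 members in VGAT;NuTRAP females (all genes: 50.8%). It was positive for 33 of 43 in VGAT;NuTRAP males (all genes: 50.9%). The member medians were small, at -0.06 in these females and 0.04 in these males. The nuclear members had a median SE of 0.09 in the males. In DAT;NuTRAP the difference was negative for 34 of 44 members in females (all genes: 50.9%). It was also negative for 36 of 48 in DAT;NuTRAP males (all genes: 48.1%), with medians of -0.09 and -0.06. The difference in the age effect between males and females was called for no member (0% of genes in DAT;NuTRAP and 0% in VGAT;NuTRAP; 0 and 2 members at an unadjusted p below 0.05, against 4.25% and 5.09% of genes; none by DESeq2).

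The age effect was also taken within each batch. In DAT;NuTRAP 0 of 48 members were called in the second batch (0% of genes), 0 of 48 in the first (0%) and 0 for the difference (0%). At an unadjusted p below 0.05 there were 13 members in the second batch, against 10.0% of all genes, 6 in the first, against 3.72%, and 8 for the difference, against 7.75%. The nuclear members had a median of -0.14 in the second batch, with 41 of 43 negative (all genes: 49.3%), and of 0.03 in the first, with 29 of 43 positive (all genes: 48.5%). The first batch of VGAT;NuTRAP held 4 young and only 2 old libraries, the old ones from the female of 24 months and from old male 1. In VGAT;NuTRAP the counts were 0 of 48 in the second batch (0.0669% of genes), 0 of 48 in the first (0%) and 0 for the difference (0%), with nuclear medians of -0.09 and 0.08 in the second and the first batch. At an unadjusted p below 0.05 there were 1, 4 and 8 members, against 8.49%, 5.23% and 7.65% of all genes. DESeq2 called none of these except mt-Co1 and mt-Cytb in DAT;NuTRAP.

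Those 2 genes had opposite signs with age in the batches of DAT;NuTRAP. In the second batch mt-Co1 stood at 354, 422, 579, 911 and 1259 CPM in old mice and at 308, 355, 382, 388, 423 and 634 CPM in young mice, with overlap. In the first batch it stood at 179, 181, 200 and 265 CPM in old mice and at 259, 806, 811 and 949 CPM in young mice, and 1 young male library lay among the old ones. mt-Cytb followed the same libraries, with 125, 126, 150 and 172 CPM in old and 164, 443, 462 and 556 CPM in young mice of the first batch. By edgeR the age difference of mt-Co1 was 0.76 ± 0.35 in the second batch (adjusted p = 0.478) and -1.78 ± 0.42 in the first (adjusted p = 0.397), and the difference between batches 2.55 ± 0.54 (adjusted p = 0.273), none past the threshold. DESeq2 gave -1.79 (adjusted p = 0.00153) for mt-Co1 and -1.52 (adjusted p = 0.00657) for mt-Cytb in the first batch, and called the difference between batches for both (adjusted p = 0.001 and 0.00301). An exact permutation test over the 4 old and 4 young libraries of the first batch, two-sided, gave p = 0.0571 for each gene (0.229 adjusted over 8 tests), with 0.0286 the smallest that design allows. In the second batch it gave 0.121 and 0.186 (0.267 and 0.298 adjusted). The old libraries of the first batch were mostly male and the young ones evenly split by sex. None of these tests had a term for sex, so age and sex are partly mixed there.

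Uqcrq, a small subunit of complex III next to cytochrome b, and Cox17, the copper chaperone, varied through 3 libraries, all male and of the first batch. Uqcrq stood at 42.9 CPM in young male DAT;NuTRAP library 2, at 56.4 CPM in old male VGAT;NuTRAP library 1 and at 32.4 CPM in young male VGAT;NuTRAP library 1. Over all libraries the medians of Uqcrq by model and batch were 229 and 139 CPM in DAT;NuTRAP and 131 and 158 CPM in VGAT;NuTRAP, for the second and the first batch. Cox17 stood at 18.1, 27.6 and 16.3 CPM in those 3 libraries and Uqcr11 at 55.8, 53.3 and 49.9 CPM. Among the 42 members with at least 1000 counts, these 3 were lower by over 0.5 on the log2 scale in all 3 libraries, relative to the other libraries of the same model and batch. In DAT;NuTRAP males the age difference of Uqcrq was 0.36 with all libraries and 0.00 without young male library 2, and that of Cox17 was 0.36 and 0.09. By edgeR with all libraries, the difference of differences between cell types and batches was 0.75 ± 0.33 for Uqcrq (adjusted p = 0.095). That of Cox17 was 0.69 ± 0.27 (adjusted p = 0.056). Without the 3 libraries it was 1.00 ± 0.13 for Uqcrq, 0.90 ± 0.14 for Cox17 and 0.91 ± 0.11 for Uqcr11. The 3 libraries were left out because they were low in Uqcrq, so the values without them are no test of these genes. Leaving the 3 out, 37 members were higher and 4 lower in DAT;NuTRAP of the second batch, and 0 higher and 24 lower in the first. In the fit of all libraries the shares of all genes were 28.6% and 31.8% in the second batch and 13.8% and 15.4% in the first.

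**Figure D5:**
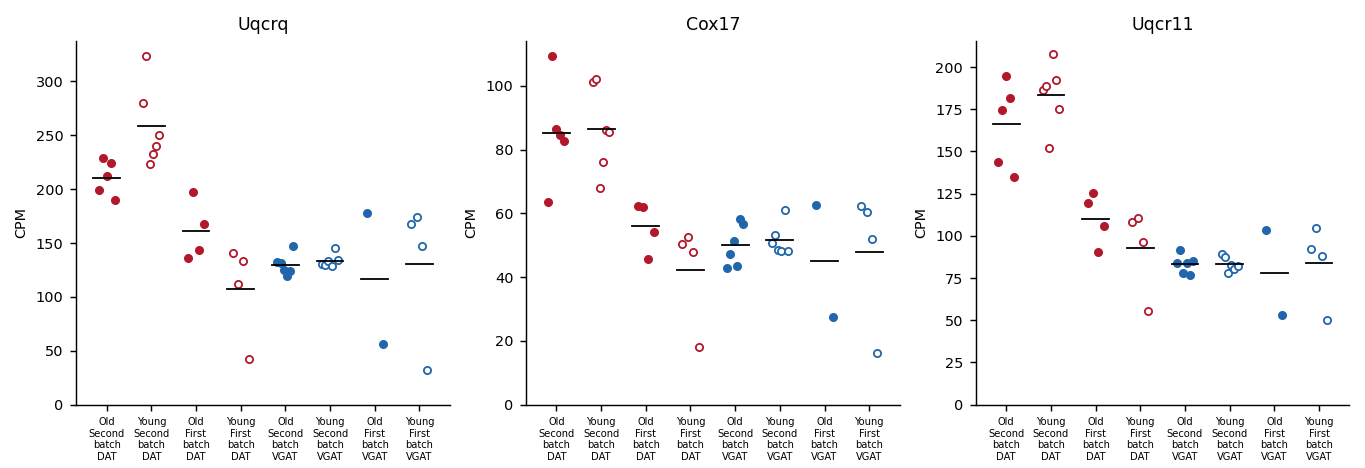
CPM of Uqcrq, Cox17 and Uqcr11 (y axis) in each library, by model, batch and age (old filled, young open; bars are means). The lowest point of each panel and the other low ones belong to 3 male libraries of the first batch, at 32.4 to 56.4 CPM of Uqcrq.

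Cox6a2 was the 1 member with a lower ratio of cell types in the second than in the first batch, but it was listed at 0 in all 6 young DAT;NuTRAP libraries of the second batch and exceeded 1 CPM in 2 libraries of the series. Its highest value, 2.05 CPM, came from old female DAT;NuTRAP library 1. In that library the striated muscle markers summed to 123 CPM, with Acta1 at 59.7 CPM, against a median of 3.86 CPM over the 8 libraries of the first batch of DAT;NuTRAP to which it belongs; the part of that material in the value was not tested.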

How the data were processed

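Raw counts per gene were deposited by the authors in 1 table for each model, made from poly(A)-selected directional libraries with STAR 2.7.10b and featureCounts on mm39, per the study's methods and the submitters' processing notes. The version of featureCounts and its strand setting are not given in the sources used here. No count column was left out (0 columns not used).

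The members and lists were chosen with earlier results of these data known. The tables were joined on gene ID. Cell types were compared in 1 fit of all 37 libraries, with groups of model and age and a batch term within each model. Ages were compared within each model with a batch term. Fits used edgeR 4.0.16 (quasi-likelihood, robust, TMM factors, R 4.3.3), genes passing filterByExpr at a minimum count of 10, and Benjamini-Hochberg adjustment over all genes tested, with a call at an adjusted p below 0.05. CPM used TMM factors. Comparisons within each batch, the batches within each model, the exact permutation tests of mt-Co1 and mt-Cytb (scipy 1.17.1) and the fits without 3 libraries were added after the data were seen. Alternatives were DESeq2 1.42.0, other filters and normalizations, other batch terms, each batch alone, the replicate block, the call rule of the study (a log2 difference past 0.5 either way, at an adjusted p under 0.5) and leaving out each library.

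Named genes were, for each comparison, up to 12 higher and 12 lower members by smallest p among those called, or up to 3 each way as values where none was called, with the mitochondrially encoded members, alternative forms of a subunit, members the study shows and the highest and lowest levels. From these the text describes a selection by role. Gene models were those of GENCODE on GRCm39. P-values measure the spread between these libraries, each of 1 mouse. Library depth was 13841253 to 38235015 counts.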

Additional observations from a re-analysis of the deposited data

Results flagged for a closer look

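In 168 groups of libraries tested for a sample far from the others, 18 had one, and chance flags about 5% of such groups. Each group held the libraries of 1 model and age with both batches together. The same libraries recur for every gene, so the groups are not independent and the 5% is no measure of them. Young male VGAT;NuTRAP library 1 and old male VGAT;NuTRAP library 1 both belong to the first batch. All values are CPM. Young male VGAT;NuTRAP library 1 stood apart from the other 9 young libraries with Uqcrq at 32.43 (nearest 128.5), Cox17 at 16.3 (48.14), Uqcr11 at 49.88 (77.76), Cox6a1 at 158.4 (223.6) and Atp5f1d at 143.9 (191.7), all below them, and with Cox7a2l at 150.0 (136.7), above them. Old male VGAT;NuTRAP library 1 stood above the other 7 old libraries with Uqcrc2 at 344.6 (279.7), Atp5pd at 360.8 (275.3), Cox6b1 at 369 (307.5), Atp5me at 125.7 (96.49), Uqcr10 at 122.6 (104.6), Atp5mc2 at 54.43 (44.38) and Atp5mk at 222.6 (177). Old male VGAT;NuTRAP library 2 had mt-Co1 at 1026 (325.3) and mt-Cytb at 578.2 (232.5). In old DAT;NuTRAP, male library 5 was lowest in Atp5f1a at 1177 (1323) and Uqcrc2 at 163.1 (220.4), and male library 4 was highest in Cox7a1 at 12.45 (5.472).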

How the results depend on the processing

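With the first batch alone, 1 member was higher and 28 lower in DAT;NuTRAP, and with the second alone 36 and 3, against 19 and 9 over both. The second batch alone gave 35 calls in young and 31 in old mice. Members lower numbered 4 without a batch term and 5 with 1 batch term for both models, and calls in old mice 13 without one. The call rule of the study gave 9 higher and 1 lower (10 calls), 13 calls in young mice, 9 in old, 8 in the first batch, 27 in the second, 5 between the batches of VGAT;NuTRAP and, with age in DAT;NuTRAP, 1 in the first batch, 2 in the second and 3 for their difference. DESeq2 gave 2 calls with age in the first batch of DAT;NuTRAP and 2 for the difference. The first batch of DAT;NuTRAP females alone gave 2, from 1 old and 2 young libraries, so the old arm has no spread of its own and the value is no replicated test. The log2 difference of the cell types turned round with the second batch alone for Atp5pb (0.0278), Cox7c (0.16), Cyc1 (0.0918) and Atp5f1c (0.22), and with the first alone for Atp5f1d (-0.10), Atp5mc1 (-0.26), Atp5pf (-0.36), Atp5po (-0.14), Atp5pd (-0.27), Cox8a in cell type comparison (-0.00278), Atp5mg (-0.37), Cox6a1 (-0.13), Atp5me (-0.39), Uqcr10 in cell type comparison (-0.0199), Atp5mc2 (-0.16) and Atp5mk (-0.38). With age in DAT;NuTRAP, mt-Co1 (0.77) and mt-Cytb (0.74) turned round with the second batch alone, mt-Cytb (0.27) without a batch term, and Uqcrq in males (-0.21) with the second batch alone. The cause was not tested. Leaving out 1 library gave 26 to 30 calls for the cell types, 24 to 29 in the first and 39 to 42 in the second batch. Same-numbered libraries did not deviate together: 1 of 27 pairs in DAT;NuTRAP and 0 of 22 in VGAT;NuTRAP correlated above 0.1. The replicate block left 8 calls between the batches of VGAT;NuTRAP, against 21, and 2 members lower in the second batch, against 4, and 0 with a lower ratio of cell types in the second than in the first batch, against 1. It moved no other count of calls by over 1.5 times, of members higher or lower. The first batch alone could not be fitted for VGAT;NuTRAP males. Low counts limit Cox4i2, Cox6a2, Cox6b2, Cox6c2 and 3 mitochondrial members.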
